A study of Homo sapiens with 9 samples.

Results

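The interleukin 1 system is described here through 9 genes in NB4 cells: the agonist ligands IL1A and IL1B, the receptor antagonist IL1RN, the receptor chains IL1R1, IL1R2 and IL1RAP, the related ligand IL18, and the processing components CASP1 and NLRP3. They were found by symbol in both deposited tables, 9 of 36119 loci in the knockout table and 9 of 35856 in the treatment table. Of the 9, 8 stood alone under their own name, and IL1RAP shared its row with a neighbouring clone-based locus name (AC108747.5-1), so its value may include that locus. In build hg18, which the files use, the deposited loci of the ligand genes lie on chromosome 2: IL1A at 113247966 to 113259442, IL1B at 113303808 to 113310827 and IL1RN at 113585164 to 113608063. The receptor genes IL1R2 (101974738 to 102011312) and IL1R1 (102053268 to 102162766) lie on the same chromosome, and IL1RAP on chromosome 3 (191714585 to 191858537). CASP1 (104401458 to 104411086) and IL18 (111519186 to 111540050) lie on chromosome 11, and NLRP3 on chromosome 1 (245646098 to 245679027).

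IL1A and IL1B encode the agonists that bind IL1R1, which then recruits IL1RAP, the accessory chain through which MYD88 and the IRAK kinases are engaged. IL1RN encodes an antagonist that occupies IL1R1 without recruiting IL1RAP, and IL1R2 is a decoy receptor that binds ligand without signalling. IL1B and IL18 are made as inactive precursors and cut by caspase 1, the product of CASP1, which is activated on inflammasomes such as that built by the sensor NLRP3. Monocytes, macrophages and neutrophils are the main myeloid sources of these products, and messenger RNA levels do not show how much ligand is cut or released.

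NB4 is an established cell line from a human acute promyelocytic leukaemia with the PML-RARA fusion, and retinoic acid (RA) drives its maturation towards granulocytes. The 5 treatment libraries, 1 per group, are of NB4 cells exposed for 24 h to the vehicle DMSO, to MC_2580 (an inhibitor of the histone demethylase LSD1, dose not given in the labels), to 0.01 uM RA, to 1 uM RA, or to both MC_2580 and 0.01 uM RA, below termed the combination. The knockout set holds 2 libraries of untreated LSD1 knockout (KO) NB4 cells and 2 of untreated wild-type (WT) NB4 cells. The labels do not state how the knockout was made, how many clones it came from or whether replicates are separate cultures. Inside the knockout table both KO libraries carry the single name LSDI_KO2 with a replicate number, so they may be of 1 line, and other differences between the lines cannot be told apart from the knockout, and the spread behind each p-value may be technical.

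All levels are FPKM (fragments scaled by transcript length and by the size of the library), which allows genes to be compared per length. Between 11974 and 13365 loci per library reached 1 FPKM. From the spacing of low values, 1 fragment on a 1 kb transcript was worth 0.0214 (DMSO) to 0.0405 FPKM (WT replicate 1), so members below about 0.1 FPKM rest on a few fragments. KDM1A, which encodes LSD1 and is listed as AOF2, stood at 14.0 and 16.8 FPKM in KO against 49.8 and 66.6 in WT. It was lower in KO but not past the threshold (log2 difference -1.84, SE 0.23, limma adjusted p = 0.158). Of 7 promyelocyte markers, 5 reached 1 FPKM in every library, and MPO was at 2454 to 6518 FPKM, while ELANE and KIT were at most 0.372 FPKM.

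The promoter windows of the agonist gene IL1B and the antagonist gene IL1RN are shown because their levels differed from DMSO in opposite directions under RA. That of NLRP3 is shown because it is the inflammasome sensor among the 9 members and its level was higher under RA. RefSeq windows (250 bases before to 50 after the annotated start, build GRCh38.p14, 5′ to 3′ on the gene's strand) were matched for 7 of the 9 members, with none for CASP1 and IL18. Capitals mark a match to any of 5 motifs searched on both strands: the NF-kB motif, C/EBP (TTGCNNAA), ETS (GAGGAA), a nuclear receptor half-site (AGGTCA) and GFI1 (AATCACNGC).
IL1B, chr2:112836730-112837029, minus strand: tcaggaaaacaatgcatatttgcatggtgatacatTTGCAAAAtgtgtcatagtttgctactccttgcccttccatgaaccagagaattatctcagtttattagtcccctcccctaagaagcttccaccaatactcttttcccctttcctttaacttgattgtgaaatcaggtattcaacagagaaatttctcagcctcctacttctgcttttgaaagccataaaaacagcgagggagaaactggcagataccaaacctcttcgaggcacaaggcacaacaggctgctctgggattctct
IL1RN, chr2:113117721-113118020, plus strand: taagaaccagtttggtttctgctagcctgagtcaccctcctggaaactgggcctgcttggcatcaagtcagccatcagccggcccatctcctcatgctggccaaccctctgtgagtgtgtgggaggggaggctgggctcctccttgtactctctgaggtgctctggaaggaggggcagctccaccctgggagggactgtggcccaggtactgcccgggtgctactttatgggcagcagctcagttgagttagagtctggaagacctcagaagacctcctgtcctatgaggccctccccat
NLRP3, chr1:247415923-247416222, plus strand: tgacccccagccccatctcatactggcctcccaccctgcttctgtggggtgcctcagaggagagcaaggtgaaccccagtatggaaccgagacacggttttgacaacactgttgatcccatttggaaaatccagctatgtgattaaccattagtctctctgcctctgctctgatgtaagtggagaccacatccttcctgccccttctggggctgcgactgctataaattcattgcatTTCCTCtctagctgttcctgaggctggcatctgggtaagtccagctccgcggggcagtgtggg

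The IL1B window held 1 C/EBP match that began 215 bases before the start, and 10.5% of all 35116 promoter windows held such a match. In NLRP3 there was 1 ETS match on the opposite strand, beginning 13 bases before the start, a motif found in 27.9% of all windows. None of the 5 motifs was found in the windows of IL1RN and IL1RAP, nor in those of IL1A and IL1R2. IL1R1 had 1 ETS match. The NF-kB motif, the AGGTCA half-site and the GFI1 motif, found in 11.3%, 13.8% and 1.03% of all windows, were in none of the 7. A single window per gene was searched, so any other start sites of these genes were not covered. These letters describe the windows and bear on no factor's binding.

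**Figure D1:**
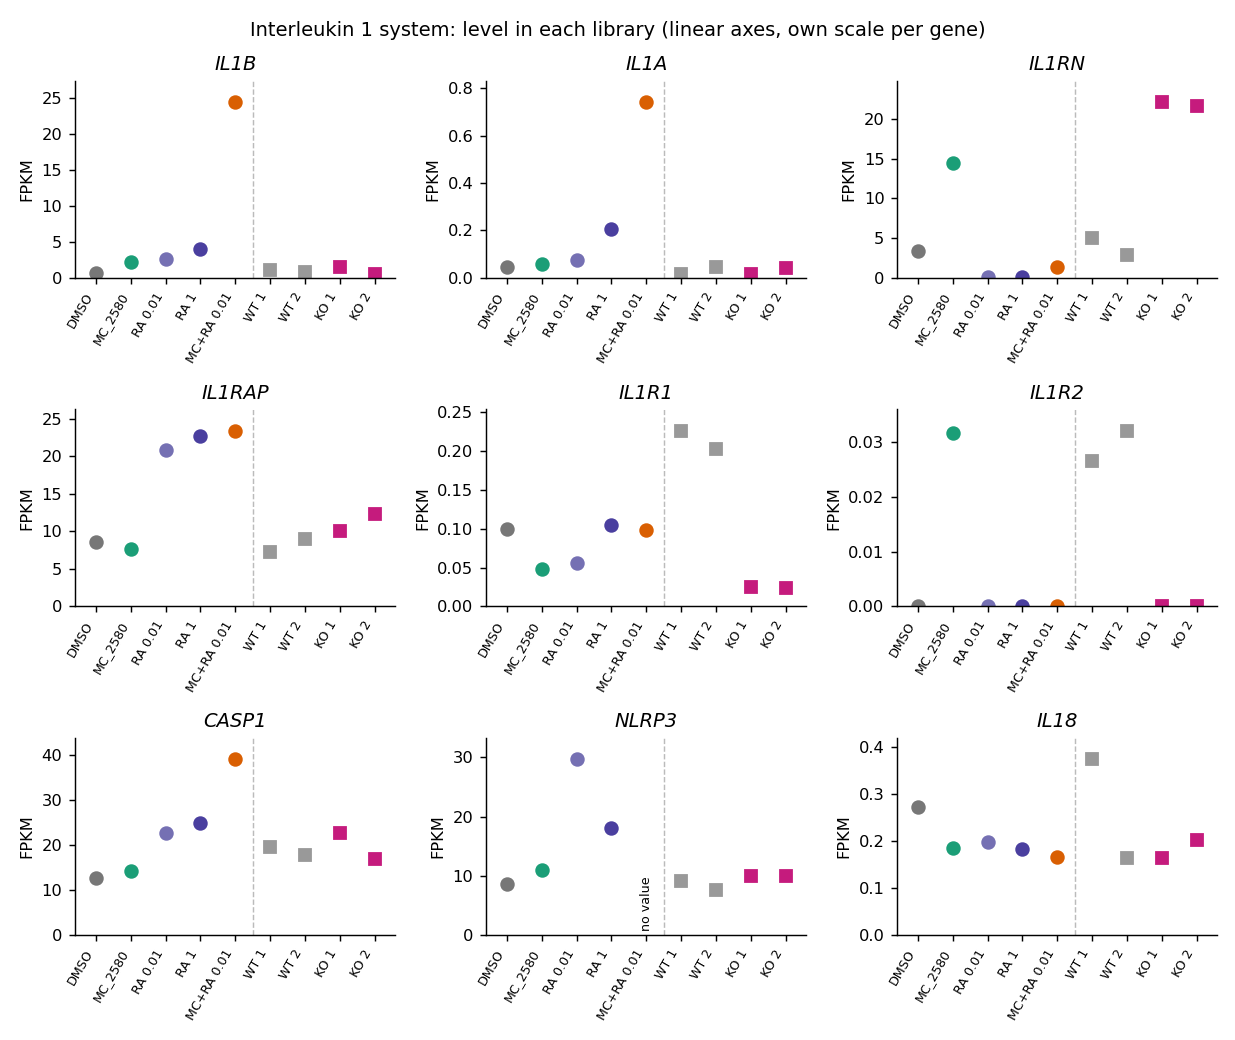
Level of each of the 9 members (FPKM, linear axis with its own scale per gene) in the 5 treatment libraries (circles, 1 library each) and the 4 knockout set libraries (squares), with no value for NLRP3 in the combination. IL1B peaks in the combination at 24.4 FPKM, while IL1RN is highest in both KO libraries and in MC_2580 and near 0 under RA.

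In vehicle-treated cells the system was unevenly expressed. CASP1 was the highest member at 12.6 FPKM in DMSO, followed by IL1RAP at 8.59 and NLRP3 at 8.58, which did not differ from each other beyond the spread that these genes showed between WT replicates (7.25 and 9.01 FPKM for IL1RAP, 9.09 and 7.51 for NLRP3). IL1RN stood at 3.35 and IL1B at 0.623 FPKM. Thus transcripts of the inflammasome sensor, the caspase and the accessory receptor chain were present, and the antagonist lay 5.39-fold above the agonist IL1B.

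The remaining 4 members were under 1 FPKM in all 9 libraries. IL18, the caspase 1 substrate related to IL1B, ranged from 0.164 to 0.374 FPKM. IL1R1, the signalling receptor chain, ranged from 0.0241 to 0.227 FPKM, and IL1R2, the decoy, from 0 to 0.0321 FPKM, which is at most an estimated 1.83 fragments. NB4 cells therefore had IL1RAP transcripts at 7.25 to 23.4 FPKM, while its partner chain IL1R1 rested on an estimated 1.44 to 18.6 fragments per library. IL1A lay between 0.0175 and 0.205 FPKM outside the combination, where it was 0.741.

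The comparison of MC_2580 with DMSO asks what the LSD1 inhibitor alone does in 24 h. The antagonist IL1RN, which blocks the receptor, was the only member past 2-fold on the FPKM + 1 scale used for calls. It stood at 14.5 FPKM in MC_2580 against 3.35 in DMSO, 4.31-fold higher in FPKM (log2 difference of FPKM + 1, the scale used below, 1.83). IL1B was at 2.20 FPKM against 0.623, 3.54-fold higher in FPKM. The added 1 FPKM, which understates changes of low genes, left its log2 difference at 0.98, just under the threshold of 1.

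Of the 5 members that reached 1 FPKM in 1 of these 2 libraries, 1 was called higher and 0 lower, where 2.22% of 13449 loci were higher and 1.73% lower. Among protein-coding genes with 1 locus the share called higher was 0.755%. The log2 difference of IL1RN exceeded that of 98.8% of all loci tested. CASP1 (14.2 against 12.6 FPKM), NLRP3 (10.9 against 8.58) and IL1RAP (7.63 against 8.59) stayed within 2-fold. The authors' deposited table, which tests 1 library against another, calls IL1RN here and no other member.

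With 1 library per treatment there is no replicate check and no p-value. All 4 comparisons with DMSO share that library, so a departure of the DMSO library would appear in each. For scale, 2 libraries of the same group in the knockout set were past 2-fold at 9.05% (WT) and 8.59% (KO) of loci, and at 3.76% and 3.44% of protein-coding genes. IL1RN itself differed by 0.64 in log2 between the WT replicates and by 0.03 between the KO replicates, and IL1B by 0.20 and 0.68. In bulk RNA a lower level in each cell and fewer cells that express the gene cannot be told apart.

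At both RA doses the agonist IL1B was higher and the antagonist IL1RN lower than in DMSO. IL1RN, at 3.35 FPKM in DMSO, was at 0.0607 in RA 0.01 uM and 0.0884 in RA 1 uM, a log2 difference of -2.04 and -2.00. These residual levels correspond to an estimated 3.75 and 6.74 fragments, against 283 in DMSO, so the ratios of 55.2-fold and 37.9-fold lower are imprecise and the order of the 2 doses cannot be read from them. IL1B was higher than in DMSO (0.623 FPKM) at both doses, at 2.68 and 4.02 FPKM, with a log2 difference of 1.18 and 1.63.

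The accessory chain IL1RAP was higher too, from 8.59 FPKM to 20.8 in RA 0.01 uM and 22.7 in RA 1 uM (2.42-fold and 2.64-fold in FPKM). NLRP3, the sensor that starts inflammasome assembly, was the highest member in RA 0.01 uM at 29.7 FPKM (log2 1.68), and stood at 18.1 FPKM in RA 1 uM, with a log2 difference of 0.99 that passed the threshold with 0.1 FPKM added (1.07) or centred on the median (1.02). Its level was thus higher at the lower dose, an order set by 1 library each. CASP1 went from 12.6 to 22.5 and 24.9 FPKM, which stayed under 2-fold (log2 0.79 and 0.93). CASP1 shares sequence with CARD16 and CARD17, so its reads may be split among these copies and its values are uncertain.

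In RA 0.01 uM, 3 of 5 members tested were called higher (IL1B, IL1RAP and NLRP3) and 1 lower (IL1RN), where 5.42% of 13594 loci were higher and 3.99% lower. In RA 1 uM, 2 of 5 were called higher (IL1B and IL1RAP) and 1 lower (IL1RN), where 6.63% of 13630 loci were higher and 4.09% lower. The decrease of IL1RN lay among the lowest 1.46% and 1.58% of loci. IL1B passed the 1 FPKM filter only through the RA libraries and IL1RN only through DMSO, so each could be called in 1 direction only. The authors' deposited table calls NLRP3 alone in RA 0.01 uM, and IL1B, IL1RN and NLRP3 in RA 1 uM.

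**Figure D2:**
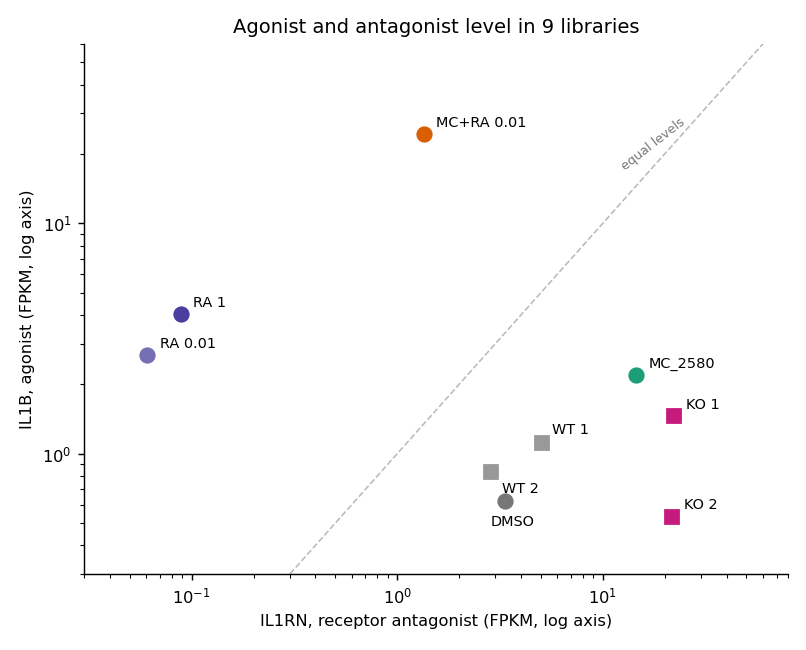
IL1B against IL1RN (FPKM, log axes) in the 9 libraries, 1 point per library, with a dashed line at equal levels. Both RA libraries and the combination lie above the line, and the other 6 lie below it.

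The balance of agonist to antagonist transcripts showed this most plainly. The IL1B to IL1RN ratio in FPKM was 0.186 in DMSO and 0.152 in MC_2580. It was 44.1 in RA 0.01 uM and 45.5 in RA 1 uM, where IL1RN rests on a few fragments, and 18.2 in the combination. In the knockout set it was 0.221 and 0.292 in WT and 0.0657 and 0.0246 in KO. The antagonist was therefore the more abundant transcript in 6 libraries, and IL1B in the 3 that received RA.

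Adding MC_2580 to RA 0.01 uM gave the highest IL1B and IL1A levels of all libraries. IL1B was at 24.4 FPKM, against 0.623 in DMSO, 2.20 in MC_2580, 2.68 in RA 0.01 uM and 4.02 in RA 1 uM. Its log2 difference was 3.97 from DMSO, 2.79 from RA 0.01 uM and 2.34 from RA 1 uM. Each of these 3 differences was above that of 98.7% or more of the loci tested (98.8%, 98.8% and 98.7%). IL1A, the other agonist, was at 0.741 FPKM, an estimated 56.3 fragments, against 0.0464 in DMSO (4.60 fragments) and 0.205 in RA 1 uM (18.3 fragments). It stayed below 1 FPKM and was not tested, while the authors' deposited table calls it against DMSO and against RA 0.01 uM.

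IL1RN took an intermediate level in the combination. Its 1.34 FPKM lay above RA 0.01 uM (0.0607, log2 difference 1.14) and RA 1 uM (0.0884, log2 difference 1.11), and below DMSO (3.35) and MC_2580 (14.5). The difference from DMSO was -0.89, not past the threshold, but with 0.1 FPKM added in place of 1 it was -1.26 and past it. With MC_2580 the antagonist was thus present again under RA, at an estimated 86.9 fragments, without reaching the vehicle level in this library.

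CASP1 was at its highest in the combination, 39.0 FPKM against 12.6 in DMSO (log2 1.56), and stood 0.77 above RA 0.01 uM in log2, under the threshold. IL1RAP, at 23.4 FPKM, was called against DMSO (log2 1.35) and differed little from RA alone (0.17 from RA 0.01 uM and 0.05 from RA 1 uM). The value of NLRP3 in the combination is missing, because every deposited test with that library has a failed status for this gene. The inflammasome sensor therefore cannot be placed in the combination.

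Against DMSO, 3 of 4 members tested were called higher (IL1B, IL1RAP and CASP1) and 0 lower, where 9.05% of 13841 loci were higher and 4.64% lower. Against RA 0.01 uM, 2 of 4 were called higher (IL1B and IL1RN) and 0 lower, where 5.06% of 13627 loci were higher and 1.92% lower. Against RA 1 uM the same 2 of 4 were called higher and 0 lower, where 4.07% of 13580 loci were higher and 1.84% lower. Against RA, IL1RN passed the 1 FPKM filter only through the combination, as IL1B did against DMSO. There each could only be called higher. The authors' deposited table calls IL1A, IL1B and CASP1 against DMSO, IL1A and IL1B against RA 0.01 uM, and IL1B against RA 1 uM.

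**Figure D3:**
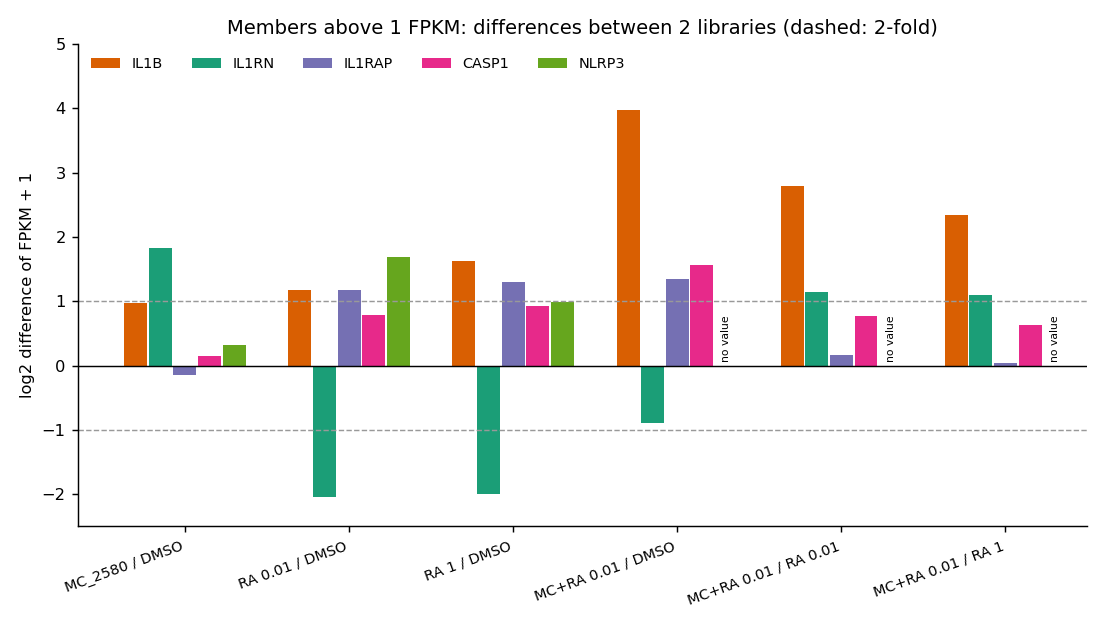
Log2 difference of FPKM + 1 for the 5 members above 1 FPKM in 6 comparisons of 2 libraries each (1 bar per gene, no error because each group is 1 library). Bars past the dashed lines at 1 and -1 are past 2-fold, and the IL1B bar is highest in the combination at 3.97 against DMSO.

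Whether the combination exceeded its parts was asked by subtracting the log2 differences of MC_2580 and RA 0.01 uM from that of the combination. IL1B deviated by 1.81: the 2 parts added in log2 predict 6.27 FPKM, and added in linear FPKM 4.26, where 24.4 was measured. Of 4 members tested, 1 was called above the sum (IL1B) and 0 below, where 4.52% of 14045 loci lay above and 2.73% below. CASP1 lay 0.61 above the sum and IL1RAP 0.32 above.

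IL1RN lay 0.69 below the sum, a deviation of -0.69 that turned to 1.09 with 0.1 FPKM added in place of 1, so its direction is not settled. The DMSO library enters each deviation. Its part in the value was not tested.

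The comparison of KO with WT, the one with replicates, addresses the loss of LSD1 without any drug. IL1RN, the antagonist, was at 22.1 and 21.6 FPKM in KO against 5.03 and 2.86 in WT. The means were 21.9 ± 0.343 FPKM in KO and 3.95 ± 1.53 in WT (SD, n = 2 each), 5.54-fold higher in KO. The log2 difference of 2.24 (SE 0.27) did not pass the threshold among 13156 loci (limma adjusted p = 0.158). It ranked 113 by p, and the limma adjusted p was 0.0543 with protein-coding genes alone in the fit, the lowest of the alternatives, which reached 0.662 without KO replicate 1. The authors' deposited table, which pairs each KO library with the WT library of its number, calls it for replicate 2 and not for replicate 1.

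In the fit used for calls, the other members tested had limma adjusted p-values of 0.815 or more. With the replicate number as a block, the limma adjusted p was 0.156 for IL1RAP and 0.275 for NLRP3. These numbers are not known to pair the libraries. IL1RAP was at 10.1 and 12.3 FPKM in KO against 7.25 and 9.01 in WT (log2 0.42, SE 0.20, limma adjusted p = 0.815). NLRP3 was at 9.92 and 9.94 against 9.09 and 7.51 (0.24, SE 0.17, limma adjusted p = 0.830). CASP1 overlapped, with 22.5 and 16.8 FPKM in KO against 19.4 and 17.7 in WT (0.07, SE 0.21, limma adjusted p = 0.982), and without KO replicate 1 its difference was -0.13.

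Of the 4 members tested, 0 were called by limma in either direction, and IL1RN alone of them had an unadjusted limma p under 0.05. The background was 0.0608% of loci higher and 0.0532% lower, 15 loci in all, while 945 had an unadjusted p under 0.05 and the authors' deposited table calls 117 and 96 loci for the 2 replicates. IL1B, at 1.45 and 0.532 FPKM in KO against 1.11 and 0.834 in WT, overlapped and fell just short of the 1 FPKM filter (group means 0.993 and 0.973). A higher IL1RN without a higher IL1B was thus measured in KO, and the size of the IL1B difference is poorly bounded by 2 libraries a group.

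IL1R1 was at 0.0250 and 0.0241 FPKM in KO against 0.227 and 0.203 in WT. The KO values correspond to an estimated 1.44 and 1.79 fragments and the WT values to 12.6 and 18.6, under the 1 FPKM filter. In a fit with no filter its log2 difference on the FPKM + 1 scale was -0.25 (SE 0.03), with a limma adjusted p of 0.193. IL1R2 was at 0 in both KO libraries and at 0.0266 and 0.0321 FPKM in WT, an estimated 0.924 and 1.83 fragments. IL18 overlapped, at 0.164 and 0.202 against 0.374 and 0.164, as did IL1A, at 0.0175 and 0.0404 against 0.0181 and 0.0437.

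The summed monocyte and macrophage markers were higher in KO cells and in MC_2580, as IL1RN was. The summed level of 11 monocyte and macrophage markers was 423 and 948 FPKM in KO against 68.7 and 139 in WT. In the treatment set it was 64.1 in DMSO, 332 in MC_2580, 48.7 in RA 0.01 uM, 45.1 in RA 1 uM and 831 in the combination. Between 5 and 7 of the 11 reached 1 FPKM, and LYZ, the lysozyme gene, made up much of the sum (381 and 912 FPKM in KO, 34.1 and 116 in WT). CD163 and MRC1, which define macrophages, were under 0.01 FPKM in every library, and CD14 was at most 0.221 FPKM where it had a value outside the combination, and 3.03 in it. This marker sum and IL1RN did not move together in the combination, where the sum was high and IL1RN was not, and CSF1R had no value in DMSO. The lymphoid markers (8 genes) summed to 301 and 236 FPKM in KO against 166 and 99.5 in WT, with CD3G at 12.9 and 13.6 against 1.28 and 1.05 and MS4A1 at 0 throughout. Of the fibroblast and epithelial markers, 6 of 8 were matched, and their sum was 1.796 and 0.796 FPKM in KO against 11.03 and 12.9 in WT, nearly all of it EPCAM. In MC_2580 the lymphoid sum was 103 FPKM against 98.6 in DMSO, and the fibroblast and epithelial sum 9.69 against 8.75. The part of these markers in the IL1RN values was not tested.

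Maturation markers of granulocytes, as a sum, were highest where IL1B, IL1RAP and CASP1 were. The summed level of 12 such genes was 109 FPKM in DMSO, 189 in MC_2580, 1780 in RA 0.01 uM, 2520 in RA 1 uM and 4431 in the combination. NCF1, which has near-identical copies, gave 929 FPKM of the sum in RA 0.01 uM and 2245 in the combination. MMP9 was at 28.9 FPKM in DMSO, 53.6 in MC_2580, 25.6 and 28.5 in the RA libraries and 78.2 in the combination. CEBPE was highest in RA 1 uM, at 341 FPKM against 262 in the combination. In the knockout set the sum was 251 and 209 in KO and 211 and 124 in WT. There S100A9 was at 39.9 and 55.9 FPKM in KO against 4.30 and 3.84 in WT, while IL1B and CASP1 overlapped. MMP9 went the other way, at 36.2 and 16.8 FPKM in KO against 115 and 39.3 in WT. Genes of the lymphoid list went both ways with RA. CD79A was higher, at 1.62 FPKM in DMSO and 50.0, 55.2 and 73.4 in RA 0.01 uM, RA 1 uM and the combination. In the same order CD3D was lower with RA, at 74.4, 60.8, 56.1 and 57.3 FPKM. The lymphoid sum was 98.6, 166, 173 and 222 FPKM. Between 7 and 9 of the 12 reached 1 FPKM, and the granule genes LTF and LCN2 were under 0.1 FPKM throughout, while CSF3R had no value in the 3 libraries with RA. Their part in the IL1B values was not tested.

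Among the other receptors of the family, the interleukin 18 receptor chains were higher in the libraries with RA. IL18RAP, the accessory chain for IL18, was at 0.296 FPKM in DMSO, 0.384 in MC_2580, 4.70 in RA 0.01 uM, 8.43 in RA 1 uM and 16.5 in the combination. The row shared by IL18R1 and IL1RL1, the binding chains for IL18 and IL33, was at 1.00, 1.16, 2.60, 5.76 and 10.2 FPKM in the same order, and reads of the 2 genes cannot be told apart. SIGIRR, an inhibitory family member, was at 7.56, 10.3, 15.5, 19.1 and 20.4 FPKM.

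Of 9 rows for 10 receptors, 4 were tested under RA 1 uM and 4 were called higher (6.63% of all loci), with a median log2 difference of 1.53 against -0.04 over all loci. The combination gave 4 of 4 as well (9.05% of all loci, median 1.92 against -0.02), RA 0.01 uM 2 of 4 (5.42%, 1.07 against -0.06) and MC_2580 0 of 3 (2.22%, 0.11 against -0.02). IL18RAP was under 1 FPKM in DMSO, so against DMSO it could be called higher only. The lists of pathway genes include the members, and they were chosen with results of these data known.

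Among 12 ligands and soluble binders, only IL1B, IL1RN and IL18BP reached 1 FPKM in any library. IL18BP, the secreted binder of IL18, was at 2.85 and 3.07 FPKM in KO and 3.27 and 3.59 in WT. It had a value in only 2 treatment libraries, 1.82 in RA 0.01 uM and 2.61 in the combination. IL33 and the interleukin 36 ligands were at 0.142 FPKM or less in every library. Of the ligand genes proper, IL1B and IL1RN alone reached 1 FPKM, and IL1A came nearest to it in the combination at 0.741.

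**Figure D4:**
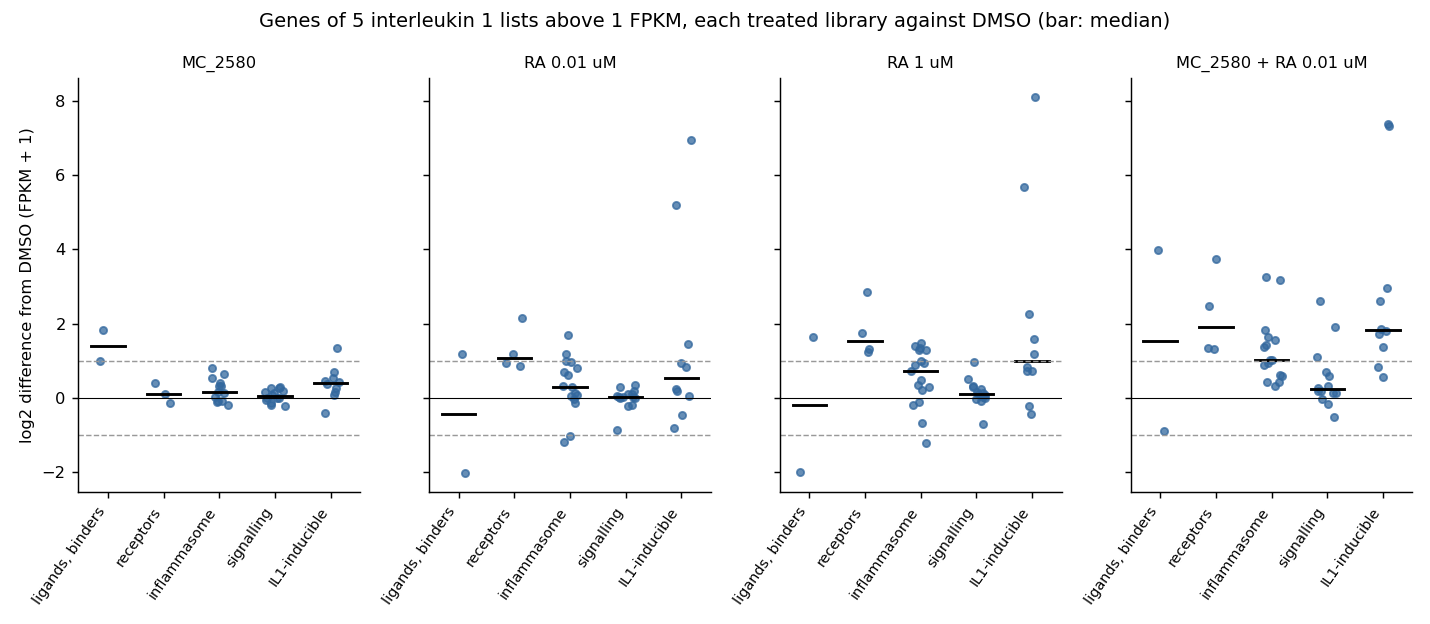
Log2 difference from DMSO (FPKM + 1) of the genes of 5 interleukin 1 lists above 1 FPKM, 1 panel per treated library, 1 point per gene, with the median of each list as a bar and 2-fold as dashed lines. In the combination the medians are 1.92 for receptors and 1.83 for interleukin 1-inducible genes, while receptor signalling genes stay near 0 at 0.23.

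Of 21 inflammasome and processing genes, 16 were tested in the combination and 9 were called higher and 0 lower, where 9.05% and 4.64% of all loci were (median log2 1.03 against -0.02 over all loci). In RA 1 uM it was 5 higher and 1 lower of 17, beside 6.63% and 4.09% of all loci (median 0.73 against -0.04). In RA 0.01 uM it was 2 higher and 2 lower of 16, beside 5.42% and 3.99% (median 0.30 against -0.06). In MC_2580 it was 0 of 13 in either direction, beside 2.22% and 1.73% (median 0.16 against -0.02). Of the genes called higher, AIM2, NLRP12, NLRC4 and CARD17 were under 1 FPKM in DMSO, so against DMSO they could be called higher only. The genes called lower in RA 0.01 uM, NLRP1 and P2RX7, were under 1 FPKM there and could be called lower only. AIM2, the cytosolic DNA sensor, was at 0.0241 FPKM in DMSO, 0.355 in MC_2580, 0.0825 in RA 0.01 uM, 0.296 in RA 1 uM and 8.74 in the combination. PYCARD, the adaptor that links sensors to caspase 1, was at 43.0, 62.4, 85.9, 111 and 113 FPKM in the same order. P2RX7, the ATP-gated channel that triggers NLRP3, was at 2.25, 4.05, 0.427, 0.386 and 5.63 FPKM, lower in both RA libraries as IL1RN was and above DMSO in the combination.

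Among 15 receptor signalling genes, 14 were tested. In the combination 3 were called higher and 0 lower, where 9.05% and 4.64% of all loci were (median 0.23 against -0.02). In MC_2580, RA 0.01 uM and RA 1 uM 0 of 14 were called, where 2.22%, 5.42% and 6.63% of all loci were higher. MYD88, the adaptor of the receptor, was at 8.78 FPKM in DMSO, 10.8 in MC_2580, 10.2 in RA 0.01 uM, 18.0 in RA 1 uM and 58.1 in the combination. IRAK2 (1.11 against 6.96 FPKM) and TAB2, a TAK1 adaptor listed as MAP3K7IP2 (21.9 against 48.1), were the other two called in the combination against DMSO.

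Genes known to be induced by interleukin 1, many of them also by other signals through NF-kB, were called higher in 8 of 10 tested among 15 in the combination, with 0 lower, beside 9.05% of all loci higher (median log2 1.83 against -0.02). RA 1 uM gave 5 of 10 (6.63% of all loci, median 1.001 against -0.04), RA 0.01 uM 3 of 10 (5.42%, 0.53 against -0.06) and MC_2580 1 of 10 (2.22%, 0.40 against -0.02), with 0 lower in each. BIRC3, called in the combination, was at 0.959 FPKM in DMSO and could be called higher only. ICAM1, an adhesion molecule, was at 10.6 FPKM in DMSO, 28.7 in MC_2580, 425 in RA 0.01 uM, 594 in RA 1 uM and 1854 in the combination. CCL2, a monocyte chemokine, was at 2.12, 2.46, 385, 854 and 519 FPKM, highest in RA 1 uM and not in the combination. IL6 and PTGS2, also classical targets, were at 0.0550 FPKM or less in every library.

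In KO against WT, 0 members of the 5 lists were called by limma. The medians were 0.37 for 4 receptors, 0.18 for 14 inflammasome genes, -0.04 for 14 signalling genes and -0.21 for 10 inducible genes, against -0.02 over all loci. For ligands and binders the median of 1.04 lay between the 2 genes tested, IL1RN at 2.24 and IL18BP at -0.16. NFKBIA, a feedback inhibitor of NF-kB, was at 19.0 and 16.4 FPKM in KO against 42.2 and 21.2 in WT. CCL2 was at 0.172 and 0.132 FPKM in KO against 3.44 and 3.005 in WT.

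Genes with the pattern most like that of a member were sought among 9509 protein-coding genes, by the root mean square difference over 8 log2 values (4 treated libraries minus DMSO and 4 knockout set libraries minus the WT mean). The nearest to IL1RN were TACC2 (0.68), RTN4RL2 (0.71) and ANXA2 (0.72). These distances grow with the size of a gene's own changes, so they are not compared between members. RTN4RL2 was at 22.1 and 26.1 FPKM in KO, 1.501 and 1.33 in WT, 2.69 in DMSO, 11.8 in MC_2580, 0.289 in RA 0.01 uM, 0.220 in RA 1 uM and 2.72 in the combination.

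For the other members that qualified, the same measure was used. The nearest to IL1RAP were CHCHD10 (0.15) and ITPRIP (0.16), and to CASP1 they were PAK1 (0.13) and KREMEN1 (0.13). For NLRP3, compared over 7 values because the combination is missing, the nearest were SOCS1 (0.16), RAB20 (0.18) and RAB11FIP1 (0.20). They share its order of RA 0.01 uM above RA 1 uM (RAB20 44.0 and 28.5 FPKM). Both RA libraries entered the measure, so this order follows from how the genes were picked. IL1B was not compared, since it did not reach 5 FPKM in the knockout set.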

How the data were processed

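RNA sequencing was done by the submitters on total RNA of NB4 cells with a TruSeq V2 kit, per the labels' protocols. Both deposited tables hold FPKM and have Cuffdiff's column layout, per the file headers. Build hg18 and the tools Cuffdiff, Cufflinks, TopHat2 2.0.10, TopHat 1.3.1 and CASAVA 1.8 are named, without roles, per the submitters' processing notes. Annotation and strand setting: not given in the sources used here.

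The 0.001 FPKM that the authors added in the knockout table was taken off. Values of failed tests, listed at 0 in the treatment table, were treated as missing (1039 loci). Fragments per library were estimated from the spacing of low values at single-exon loci of 850 to 1050 bases, which gives no read total, so no counting interval was computed. Fragment numbers of a member use its median coding transcript length and are approximate.

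The KO comparison used limma 3.58.1 (trend, two-sided) under R 4.3.3, on log2(FPKM + 1) of loci whose mean in a group reached 1 FPKM, called at a Benjamini-Hochberg adjusted p of 0.05 over all these loci. Treatments were compared as log2((FPKM + 1)/(FPKM + 1)) where 1 of the 2 libraries reached 1 FPKM, and called at 2-fold, and the deviation from the sum at 1. A gene that passed this filter through 1 library only, such as AIM2 in the combination, could be called in that direction only. The shares over all loci used the same filter. These computations were checked on simulated data. Alternatives were the authors' calls, protein-coding genes alone, a 4-fold threshold, a linear sum, centring on the median, quantile normalization, other pseudocounts, other filters, a replicate block and leaving out each library. Software was Python 3.11.15 with matplotlib 3.10.9, numpy 2.4.6 and pandas 2.3.3.

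The members and gene lists were chosen with earlier results of these data known. The genes named are the 9 members, the called or highest members of 5 lists (73 entries, 72 rows matched), the 3 genes most like each member of at least 5 FPKM in both tables, KDM1A and markers of 5 cell type lists. IL6, PTGS2, IL33 and the marker genes singled out were chosen after their values were seen, and some of the genes most like a member are not reported here. Sequences are from RefSeq (GRCh38.p14), another build than that of the files, and no coordinates were converted. Of the matched promoters of called members, that of IL1RAP is not printed.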

Additional observations from a re-analysis of the deposited data

How the results depend on the processing

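Between KO and WT limma called 15 loci; it called 38 with a pseudocount of 0.1, 35 with 0.01, 0 with no filter, 7 with at least 5 FPKM and 59 among protein-coding genes alone. With a replicate block it called 0, and leaving out each library in turn gave 0 to 0. The numbers are not known to pair the libraries: 2 pairs, whose deviations correlated at 0.21. Of the members limma called 0 in each of these fits, and 1 (IL1RN) was called by the authors.

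In MC_2580 against DMSO, 1 member was called, 2 with a pseudocount of 0.1 (IL1B too) and 0 at 4-fold. The 4 in RA 0.01 uM became 2 with a filter of 5 FPKM, 1 at 4-fold and 1 by the authors. The 3 in RA 1 uM became 1 with that filter, 1 at 4-fold and 4 (NLRP3 too) with a pseudocount of 0.1 or median centring. The 3 in the combination against DMSO became 1 at 4-fold and 4 with a pseudocount of 0.1, where IL1RN was lower. Against RA 0.01 uM its 2 became 1 with that filter and 1 at 4-fold. Against RA 1 uM its 2 became 1 with either and 1 by the authors. Above or below the sum, 1 became 2 with a pseudocount of 0.1 and 2 with a linear sum. The deviation of IL1RN from the sum reversed from -0.69 to 1.09 with a pseudocount of 0.1, and was -2.38 against a linear sum. The causes were not tested. The KO difference of CASP1, never called, was 0.07, and leaving out each library in turn gave -0.13 (without KO replicate 1) to 0.27. Single members kept direction and call in 139 alternatives, gained a call in 5, lost it in 10 and reversed in these 2. Depth limits IL1A, IL1R1, IL1R2, IL18 and, under RA, IL1RN.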
